A study of Saccharomyces cerevisiae with 176 samples.

Results

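The small subunit processome genes are 41 genes of budding yeast (Saccharomyces cerevisiae), given as a list of systematic names and found by these names among the 6692 genes of the expression table. By systematic names, the 8 genes described in every comparison are UTP9 (YHR196W), PWP2 (YCR057C), UTP22 (YGR090W), MPP10 (YJR002W), RRP9 (YPR137W), ECM16 (YMR128W), BMS1 (YPL217C) and ENP1 (YBR247C). All 41 were matched, and each was measured in all 176 libraries. The series asked how euploid cells, which carry whole chromosome sets, and aneuploid cells, which have gained or lost single chromosomes, differ in expression while growing in different ways. In batch culture, aneuploid strains of the S288C background, each with its own A number, grew exponentially at 25 ºC in YEPD, a rich medium, with 2% glucose. The 36 libraries of 10 such strains in exp1, exp2 and exp3 were set against 8 libraries of the euploid control strain 2N. The other batch experiments, exp4, exp5 and exp6, held 66 libraries of aneuploid strains and none of 2N. In a chemostat limited for phosphate, run at 0.17 culture volumes per hour, 18 libraries of 9 aneuploid strains were set against 2 of 2N. Pooled populations were grown from the meiotic progeny of triploid cells (aneuploid populations) or diploid cells (euploid populations), all made from parents with the reporter plasmid pRS315-STE2pr-spHIS5. They were handled by the Tsai or the dilution protocol, with 3 libraries of each, beside 3 libraries of exponentially growing WT haploid cells (A2050). Each population is a mixture of many different cells. A time course followed the same WT haploid over 14 times, 0 to 26 h, at 25 ºC with 2 libraries each, and 3 libraries came from W303 haploid cells (A2587) at 30 ºC after 500 mM NaCl for 40 min. The last time is 26 h by the titles, which are followed here, but 28 h by the library codes.

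The processome is the large nucleolar particle that forms on the growing ribosomal RNA precursor and makes the small ribosomal subunit possible: it cuts away the leading spacer and lets the small subunit RNA fold. The UTP-A complex binds the precursor first, UTP-B and the U3 snoRNP join next, and the MPP10 complex, UTP-C, GTPase, helicases and many single factors follow. Genes for these factors belong to the ribosome biogenesis regulon of yeast, which is known to be turned down together with ribosomal protein genes in the environmental stress response. Their promoters are known for the PAC element, bound by the repressors DOT6 and TOD6, and the RRPE element, bound by STB3.

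The promoters are shown because they carry the feature that most of the 41 genes share. The windows below hold the 150 bases before the start codon of the 8 genes described in every comparison and of HCA4, read 5′ to 3′ on the gene's strand from the RefSeq R64 genome at the sacCer3 coordinates of the deposited annotation. Capitals mark GATGAG, the core of the PAC element, in either direction (CTCATC on the other strand), and AAAATTTT, the core of the RRPE element, which reads the same on both strands.
UTP9 (chrVIII:491781-491930, plus strand): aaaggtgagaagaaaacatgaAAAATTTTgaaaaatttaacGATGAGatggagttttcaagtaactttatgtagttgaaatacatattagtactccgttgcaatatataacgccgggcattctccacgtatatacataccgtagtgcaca
PWP2 (chrIII:223229-223378, minus strand): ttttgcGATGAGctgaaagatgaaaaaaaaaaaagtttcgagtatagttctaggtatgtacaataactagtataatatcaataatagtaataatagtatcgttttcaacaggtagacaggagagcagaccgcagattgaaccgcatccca
UTP22 (chrVII:662208-662357, plus strand): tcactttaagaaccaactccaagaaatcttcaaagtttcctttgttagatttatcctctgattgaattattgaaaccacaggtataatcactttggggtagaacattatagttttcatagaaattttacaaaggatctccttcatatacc
MPP10 (chrX:438715-438864, plus strand): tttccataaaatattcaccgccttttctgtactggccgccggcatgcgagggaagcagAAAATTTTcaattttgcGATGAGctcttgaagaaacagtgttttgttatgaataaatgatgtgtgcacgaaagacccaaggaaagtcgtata
RRP9 (chrXVI:802209-802358, plus strand): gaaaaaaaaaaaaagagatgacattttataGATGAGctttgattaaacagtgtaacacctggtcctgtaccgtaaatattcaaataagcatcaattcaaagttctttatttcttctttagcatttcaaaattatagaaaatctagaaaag
ECM16 (chrXIII:523546-523695, plus strand): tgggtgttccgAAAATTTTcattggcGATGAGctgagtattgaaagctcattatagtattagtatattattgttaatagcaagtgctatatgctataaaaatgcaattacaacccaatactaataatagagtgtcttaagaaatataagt
BMS1 (chrXVI:143172-143321, minus strand): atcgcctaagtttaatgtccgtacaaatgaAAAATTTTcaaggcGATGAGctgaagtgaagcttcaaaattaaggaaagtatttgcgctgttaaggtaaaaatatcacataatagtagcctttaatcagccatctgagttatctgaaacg
ENP1 (chrII:714456-714605, minus strand): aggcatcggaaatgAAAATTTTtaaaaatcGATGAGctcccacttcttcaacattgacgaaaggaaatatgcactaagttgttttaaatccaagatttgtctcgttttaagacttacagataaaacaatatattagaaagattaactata
HCA4 (chrX:383687-383836, plus strand): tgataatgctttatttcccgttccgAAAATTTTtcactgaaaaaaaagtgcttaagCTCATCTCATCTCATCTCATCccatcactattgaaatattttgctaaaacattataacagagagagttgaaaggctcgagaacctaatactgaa
Among the lines above, UTP9, MPP10, ECM16, BMS1, ENP1 and HCA4 hold both motifs, with the RRPE core upstream of the PAC core. PWP2 and RRP9 show the PAC core alone within these 150 bases. HCA4 carries 4 PAC cores in a row, and UTP22 has none of either motif.

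In windows of 250 bases before the start codon, GATGAG was present in 36 of the 41 genes (87.8%), against 17.0% of 5984 genes of the table with a window. AAAATTTT was present in 30 of 41 (73.2%), against 8.66% of all genes, and both motifs in 28 of 41 (68.3%), against 4.09%. The longer form GCGATGAG, which contains GATGAG, occurred in 25 of 41 genes, against 3.84% of all genes, and AAAAATTTT, which contains AAAATTTT, also in 25, against 6.75%. Of 33 assembly factors of the large subunit, 31 held GATGAG (93.9%), 31 held AAAATTTT (93.9%) and 29 both (87.9%). Of 136 ribosomal protein genes with a window, 14 held GATGAG and 9 held AAAATTTT. EMG1, UTP22 and UTP30 had neither short motif. A match is a string of letters and was not tested for binding.

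Values are log2(TPM + 1), TPM being the usual length-scaled transcript abundance, so that levels are per length of transcript. A gene is called higher or lower where limma's test, adjusted by the Benjamini-Hochberg method over all genes tested, gave an adjusted p under 0.05. A relative change is a gene's log2 change minus the median log2 change of all genes tested. Counts at an unadjusted p cover the 41 genes only, and the share of all genes was not computed for them. The summed TPM of the table reached 95.0% to 99.6% of the full TPM total in exp5 and exp6, but 5.03% to 12.3% in exp1 to exp4 and 14.0% to 20.5% in the NaCl libraries. In the time course it ran between 15.4% and 97.2%, and the late libraries were the low ones. Sequencing depth is unknown. In the chemostat, both A18 libraries stood apart from each other: the mean of the 41 genes was 1.16 above its library's median in replicate 1 and 0.76 below it in replicate 2, and results that rest on them are given both ways. Titles were followed for 2 libraries whose strain entry differs from the title, chemostat A24 replicate 2 and exp4 A18 replicate 2. Nothing in the labels says that replicates came from separate cultures, so p-values measure the spread between samples only, which may be technical.

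In exponentially growing WT haploid cells, the mean levels of the 41 genes lay between 5.08 and 7.68. KRR1, a KH domain factor, was highest at 7.68 ± 0.03, followed by BUD21 at 7.15 ± 0.06, NAN1 at 7.0 ± 0.01 and EMG1, a methyltransferase of the small subunit RNA, at 7.0 ± 0.01 (mean ± SD, n = 3). NAN1 and EMG1 did not differ beyond their spread. DHR2, a helicase, was lowest at 5.08 ± 0.09, below UTP6 at 5.59 ± 0.03, UTP30 at 5.78 ± 0.01 and UTP20, a large scaffold protein, at 5.82 ± 0.07, and UTP30 and UTP20 did not differ beyond their spread. In 2N cells of the chemostat the order was another one, with BUD21 at 7.97 ± 0.21 on top and UTP20 at 3.46 ± 0.36 at the bottom (n = 2).

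In batch culture, the mean of the 10 aneuploid strains was set against 2N. Of the 41 processome genes, 4 were lower and 0 higher, against 14.2% of 3152 genes called in either direction and 4.19% called lower. The median change was -0.21 log2 units, and all genes tested had a median of 0.05, so the relative median was -0.26. In all, 33 of the 41 had a log2 change below that of the median gene. UTP9, a UTP-A subunit, ranged from 1.16 to 3.67 with a median of 2.60 in 36 aneuploid libraries, against 2.64 to 3.58 with a median of 3.2 in 8 libraries of 2N. The groups overlapped, and UTP9 fell by 0.58 ± 0.16 log2 units (SE, limma, adjusted p = 0.0074). UTP4, another UTP-A subunit, fell by 0.46 ± 0.15 (limma adjusted p = 0.034).

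PWP2, the scaffold of UTP-B, ranged from 2.09 to 3.72 with a median of 3.06 in aneuploid libraries, against 3.19 to 3.78 with a median of 3.46 in 2N. It fell by 0.39 ± 0.12 (limma adjusted p = 0.023). UTP23, which helps to release the snR30 RNA, fell by 0.50 ± 0.16 (limma adjusted p = 0.036). The other genes followed in every comparison were not called here. RRP9, the U3-specific protein, changed by -0.46 ± 0.18 (limma adjusted p = 0.077), BMS1, the GTPase, by -0.15 ± 0.10 and MPP10 by -0.09 ± 0.10. ECM16, the helicase that unwinds U3 from the precursor, changed by 0.04 ± 0.11, UTP22 of UTP-C by 0.07 ± 0.11 and ENP1, which stays with the subunit to the cytoplasm, by 0.17 ± 0.15.

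The count of genes called lower depended on the setting. It was 8 with each library centred on its median (9.04% of all genes called lower) and 2 with no filter on low values (1.7%). Within exp1 alone it stayed close to the main count (4.02% of all genes called lower). It was 0 within exp2 alone (0.888%) and within exp3 alone (1.68%), where few genes were called lower at all. With the strain as a random block it was 0 too, but there 1 of 3152 genes was called at all, so that the 0 is not particular to the members. That fit counts the variation between strains, which the main fit leaves out. The calls of the main fit therefore hold for these strains only. It was 1 without 2N exp1 replicate 3 and 2 without each of 2N exp1 replicates 2 and 4, 2N exp2 replicate 2 and A35 exp1 replicate 1. The chromosomes of the called genes moved too: the median change of other genes, relative to all nuclear genes, was -0.25 on chromosome III (PWP2), -0.19 on VIII (UTP9) and -0.15 on IV (UTP4), but -0.003 on XV (UTP23). Markers of the haploid state differed as well. The 6 haploid-specific genes summed to 45.8 to 1158 TPM, rescaled to the full total, in aneuploid libraries, against 28.2 to 269 in 2N, all 6 were above 0 in both groups, and the 2 that passed the filter were called higher. The 5 genes of a cells summed to 2.7 to 4592 in aneuploid libraries, against 16.2 to 159 in 2N, where 3 of them were above 0. The 5 genes of alpha cells summed to 10.5 to 7557 in aneuploid libraries, against 27.2 to 231 in 2N. Of 5 stress-induced genes tested, 4 were higher, with a median change of 0.89. The part of these differences in the processome result was not tested.

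Strain by strain, the median of the 41 genes lay below that of all genes in each of the 10 strains, from -0.08 in A35 to -0.53 in A23. All strains share the same 2N libraries. Without A35 exp1 replicate 1, the A35 median was 0.05. A23 had 19 genes lower and 0 higher, against 9.23% of 3152 genes called lower. A21 had 13 lower, against 11.1%, A19 9, against 6.82%, and A20 6, against 9.58%. A22 had 2 lower (5.87% of all genes), A25 and A35 had 1 each (1.05% and 1.87%), and A1, A18 and A27 had 0 (0.381%, 2.70% and 0.730%). At an unadjusted p under 0.05, A1, A18 and A27 had 0, 3 and 1 lower and 3, 0 and 0 higher. A20 had 3 genes higher, UTP8, UTP14 and ECM16 (14.5% of all genes), and A19 had MPP10 higher (6.38%). The direction depended on experiment and scale. Taken as the mean of the 41 genes minus the library median, A19 and A20 had 1.04 and 1.09 in exp1, against 0.98 in 2N. In exp2 they had 0.73 and 0.67, against 1.01 in 2N. In exp3 A22 and A25 lay above 2N, A25 at 1.35 against 1.28. The libraries of A19 in exp1 and of A22 in exp3 overlapped those of 2N. All other strain means lay below 2N of their experiment.

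**Figure D1:**
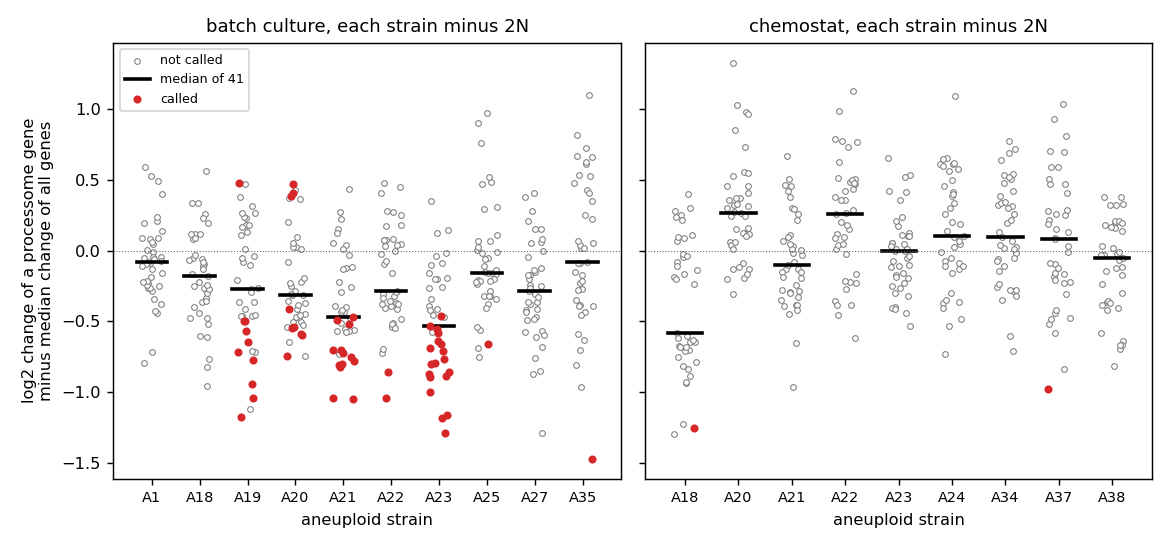
Changes of the 41 processome genes in each aneuploid strain against 2N, as log2 change minus the median change of all genes; the left panel holds 10 strains in batch culture and the right panel 9 strains in the chemostat. Filled points are called genes, open points are not called, and bars are medians, which all lie below 0 in batch culture and on both sides of 0 in the chemostat.

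UTP9 shows the pattern in A23. Its levels in exp1 were 1.49 and 1.16 in A23, against 2.81, 2.64, 3.58 and 3.31 in 2N. In exp2 they were 1.98 and 2.58 in A23, against 3.01 and 3.38 in 2N, and in exp3 3.03 and 2.62 in A23, against 3.08 and 3.38 in 2N. In each experiment both A23 libraries lay below every 2N library, by a wide margin in exp1 and a narrow one in exp3. UTP9 fell by 1.08 in A23 and by 0.97 in A21 (limma adjusted p = 0.0001 and 0.00032), and its change in all 10 strains lay between -1.08 and -0.18. LCP5 had the largest fall in A23, by 1.18 (limma adjusted p = 0.00081), but its change was 0.003 within exp3 alone. UTP18, the UTP-B subunit that brings in the exosome, fell by 0.89 in A23 and 0.64 in A21 (limma adjusted p = 0.00049 and 0.0092).

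PWP2 and RRP9 were called lower in 4 strains each, more often than the other 39. PWP2 changed by -0.74 to 0.11 over the 10 strains and RRP9 by -0.98 to 0.17. In A19, RCL1, the partner of BMS1, fell by 1.22 and BMS1 by 0.68 (limma adjusted p = 0.0021 and 0.0011). UTP23 fell by 1.49 in A35 and by 1.08 in A19 (limma adjusted p = 0.0048 and 0.0022). MPP10 was called in 4 strains, in both directions. It rose by 0.44 in A19 and fell by 0.39, 0.53 and 0.77 in A21, A23 and A25 (limma adjusted p = 0.038, 0.018, 0.0016 and 0.027). ECM16 was called higher in A20 by 0.42 (limma adjusted p = 0.025) and lower in 0 strains, UTP22 was lower in A23 alone, BMS1 in A19 alone, and ENP1 was called in 0 strains, its changes running from -0.34 to 0.80.

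How the 41 genes differed among themselves within a strain went with the chromosome each lies on. A chromosome's shift was taken as the median change of its other genes relative to all nuclear genes, and counted as raised at 0.25 or above and as lowered at -0.25 or below. In batch culture, 66 of 69 pairs of a strain and a processome gene on a raised chromosome lay above that strain's processome median (95.7%), with a median of 0.48 above it. On lowered chromosomes 16 of 74 pairs did so (21.6%), with a median of -0.12, and on chromosomes in between 118 of 267 (44.2%). Pairs share strains and chromosomes, and they are counted as a description.

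**Figure D2:**
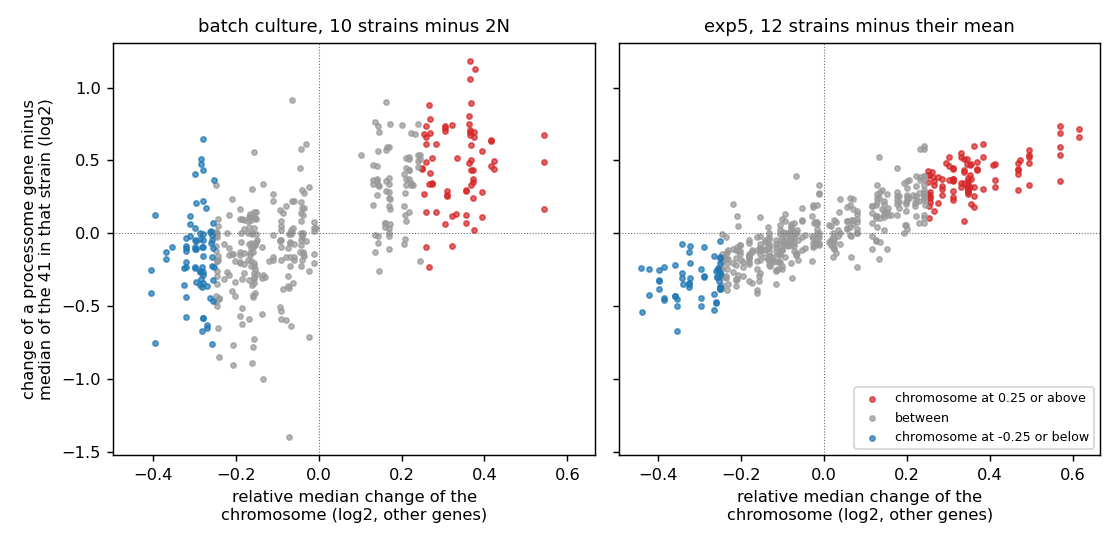
Each point is a processome gene in 1 strain. The horizontal axis gives the relative median log2 change of the other genes on its chromosome and the vertical axis the gene's log2 change minus the median of the 41 in that strain, in batch culture against 2N (left) and in exp5 against the mean of its 12 strains (right). Genes on chromosomes at 0.25 or above lie mostly above 0, in 94 of 94 pairs in exp5.

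In exp5, where each strain was set against the mean of its 12 strains, 94 of 94 pairs on raised chromosomes lay above the processome median of the strain and 0 of 56 on lowered ones, with median differences of 0.37 and -0.31 beside chromosome medians of 0.35 and -0.31. In exp6 these counts were 51 of 55 and 1 of 50, and in exp4 49 of 54 and 4 of 50. In the chemostat they were 79 of 95 and 10 of 42. UTP30, on chromosome XI, and UTP20, on II, are examples from A23 in batch culture: they lay 0.88 and 0.68 above the strain's processome median, beside chromosome medians of 0.27 and 0.25.

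In the chemostat, 0 of the 41 genes were called in the mean of 9 aneuploid strains against 2N (limma), where 16.0% of 5674 genes were, and 2 were lower at an unadjusted p under 0.05. The median change was -0.16, that of all genes was -0.17, and the relative median 0.01. Only 2 libraries stand for 2N. The labels' library codes split the strains, with 2N, A20, A21 and A23 in one code series and the other 6 in another. In the first series, A20, A21 and A23 against 2N also gave 0 calls (13.4% of all genes), 0 at an unadjusted p under 0.05, and a relative median of 0.03. That test came from the fit of all chemostat libraries, so its spread includes the other series and both A18 libraries. UTP9 ranged from 3.42 to 6.15 with a median of 5.58 in 18 aneuploid libraries, against 6.01 and 5.84 in 2N, and changed by -0.42 ± 0.38 (limma adjusted p = 0.49). PWP2 changed by -0.08 ± 0.56, MPP10 by -0.12 ± 0.35, RRP9 by 0.09 ± 0.29 and ENP1 by -0.06 ± 0.40. UTP22, ECM16 and BMS1 changed by 0.45 ± 0.41, 0.29 ± 0.37 and 0.21 ± 0.41. None of these 8 changes was called, and each had a larger standard error than in batch culture.

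Single chemostat strains lay on both sides of 2N, with relative medians from -0.58 in A18 to 0.27 in A20 and 0.26 in A22. UTP6, a UTP-B subunit, was the only gene of the 41 called in a strain, lower in A18 and A37 (9.34% and 21.1% of all genes called lower), by 1.41 and 1.3 (limma adjusted p = 0.019 and 0.017). The other 7 strains had 0 of 41 genes called (limma), where the share of all genes called was 10.4% in A20, 12.6% in A21, 17.3% in A22, 9.20% in A23, 17.0% in A24, 18.7% in A34 and 17.7% in A38. Each of these 7 strains had 0 or 1 of the 41 at an unadjusted p under 0.05. In A18, all 41 genes were lower in replicate 2 than in replicate 1, by a median of 1.88, while ribosomal protein genes were 1.31 lower and stress-induced genes 0.99 higher in replicate 2. Without replicate 2 the relative median of A18 was 0.48. Leaving out both A18 libraries put the relative median of the 9-strain mean at 0.09 with 1 gene lower. The difference between settings, chemostat effect minus batch effect over the 5 shared strains A18, A20, A21, A22 and A23, had a relative median of 0.24 with 0 of 41 genes called (limma), where 2.67% of 5064 genes were, and 0 at an unadjusted p under 0.05. Without chemostat A18 replicate 1 that median was 0.05 and without replicate 2 it was 0.43. Growth setting and library preparation cannot be told apart in this difference.

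In exp4, exp5 and exp6 strains were compared with each other. In exp5, 41 of 41 genes differed among 12 strains and in exp6 40 of 41 among 8 (limma's F test), but so did 98.4% and 94.7% of all genes. In exp4, with 10 strains, 9 of 41 differed, against 28.2% of 3546 genes. The spread between the highest and the lowest strain mean had a median of 1.2 over the 41 genes in exp5 and 1.04 in exp6. Relative to the library median A38 was lowest in both: the mean of the 41 genes minus that median was 0.88 ± 0.0004 in exp5 (SD, n = 2) and 0.62 ± 0.07 in exp6 (n = 3), and A38 was the lowest strain for 24 genes in exp5. In exp6 A30 was the lowest strain for 15 genes, and A38 and A26 for 8 each, and without subtracting the library median the mean of the 41 was 5.49 in A30 and 5.52 in A38. A1 and A34 were highest in exp5 at 1.77 ± 0.01 and 1.76 ± 0.01 (n = 2), which do not differ beyond their spread. In exp6 A29 was highest at 1.33 ± 0.07 (n = 3). A30 stood between A29 and A24 in exp5, at 1.42 ± 0.09, but next to the bottom in exp6, at 0.79 ± 0.10.

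**Figure D3:**
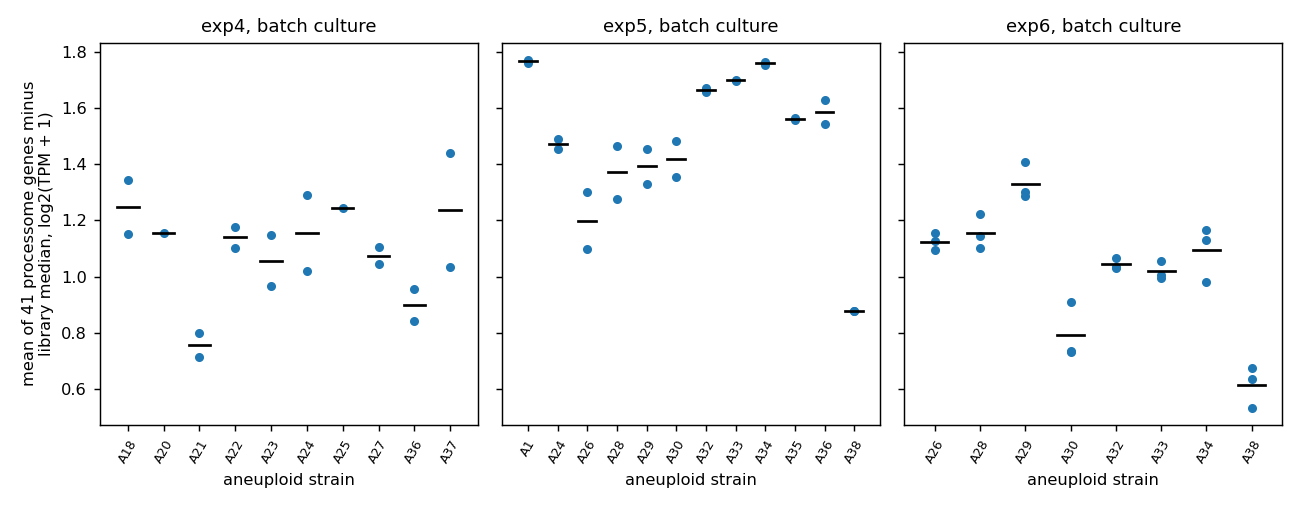
Mean log2(TPM + 1) of the 41 processome genes minus the median of all genes of the library, in each strain of exp4, exp5 and exp6; points are libraries and bars their means. On this scale A38 is the lowest strain in exp5 and in exp6, and A21 the lowest in exp4.

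Among single genes, ECM16 differed most clearly in exp5, with a mean of 6.10 in A1 and 4.45 in A38 (limma F test, adjusted p = 6.1e-10), followed by NOC4, RRP9 and UTP14. NOC4, which pairs with NOP14, reached 6.09 in A33 and 4.72 in A38 (limma F test, adjusted p = 1.2e-09). RRP9 had 6.56 in A33 and 5.11 in A38, and UTP14, the activator of ECM16, 6.78 in A1 and 5.39 in A38. In exp6 the smallest adjusted p-values belonged to UTP18, UTP6, DBP8 and MPP10. UTP18 had 5.98 in A34 and 4.63 in A38 (limma F test, adjusted p = 7.6e-10), and UTP6 had 5.75 in A34 and 4.39 in A30. In exp4, UTP10, MPP10, NAN1 and UTP23 led, UTP10 with 4.65 in A18 and 3.57 in A21 (limma F test, adjusted p = 0.0037), and A21 was the lowest strain for 18 of 41 genes.

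In the populations, under the Tsai protocol, 41 of 41 processome genes were higher in the aneuploid than in the euploid population, against 41% of 5699 genes called higher and 75.7% called in either direction. The median change was 1.55 log2 units, relative to all genes 1.5. Under the dilution protocol, 26 of 41 were lower and 4 higher, against 15.1% and 60.9% of all genes, and 75.9% were called in either direction. The median there was -0.26, relative to all genes -0.52. The difference between both effects was itself called for 41 of 41 genes, all higher under the Tsai protocol (24.7% of all genes called higher, 75.0% in either direction), with a relative median of 2.10. Fewer cells of a kind and less RNA per cell cannot be told apart in such mixtures.

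**Figure D4:**
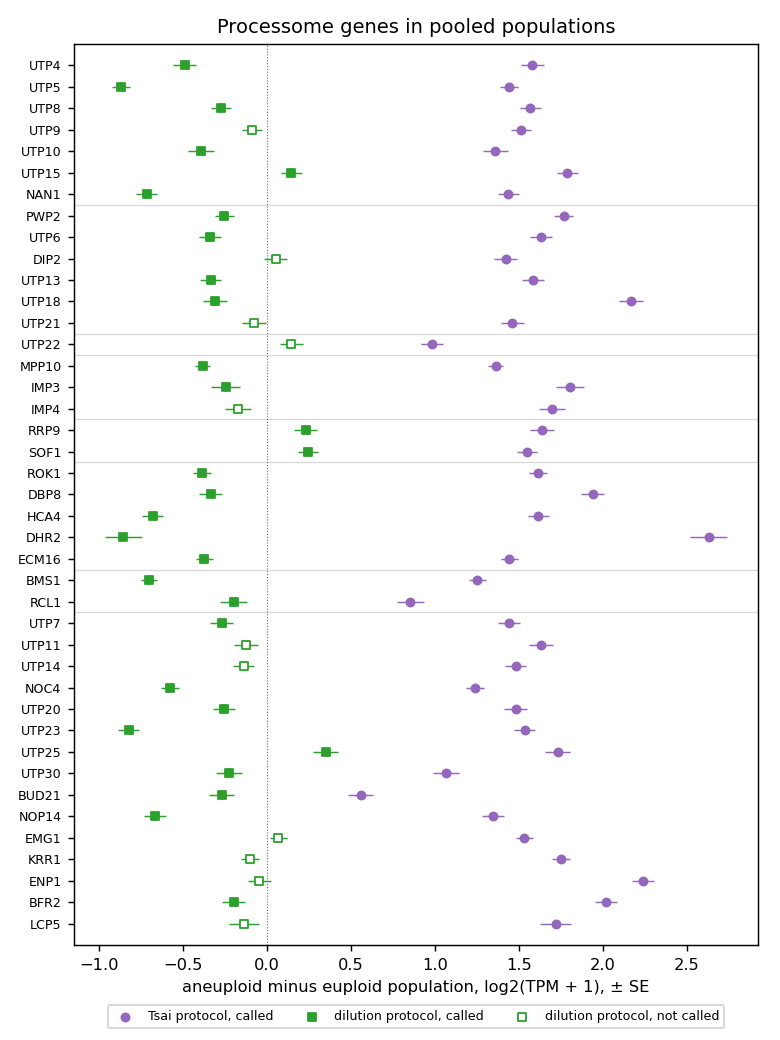
Log2 change of each processome gene, aneuploid minus euploid population, under the Tsai protocol (circles) and the dilution protocol (squares), with standard errors from limma; open squares are genes not called and genes are ordered by role. All circles lie right of 0, from 0.56 for BUD21 to 2.63 for DHR2, and most squares left of it.

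ENP1 had 6.46, 6.39 and 6.4 in the Tsai aneuploid population, against 4.17, 4.04 and 4.34 in the Tsai euploid population. The libraries were far from overlapping, and ENP1 rose by 2.23 ± 0.07 (SE, limma adjusted p = 1.1e-14). In the dilution populations it had 5.80, 5.88 and 5.87 in the aneuploid, against 6.00, 5.85 and 5.83 in the euploid ones, and these overlapped. DHR2 differed most between the protocols, by 3.48 log2 units. It had 4.58, 4.33 and 4.35 in the Tsai aneuploid population, against 1.74, 1.67 and 1.96 in the Tsai euploid population, and rose by 2.63 ± 0.11. With the dilution protocol DHR2 had 3.46, 3.76 and 3.82 in the aneuploid, against 4.64, 4.48 and 4.48 in the euploid population, and fell by 0.85 ± 0.11 (limma adjusted p = 4.8e-13 and 2.4e-06). UTP18 rose by 2.16 ± 0.07 and BFR2 by 2.02 ± 0.07 under the Tsai protocol (limma adjusted p = 3.1e-14 and 3.6e-14).

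By role, the medians of the Tsai effect were close to each other for UTP-A (1.51), UTP-B (1.61), the MPP10 complex (1.70), the U3 proteins (1.59) and the helicases (1.62). UTP22 rose by 0.98 ± 0.07, BMS1 by 1.25 ± 0.05 and RCL1 by 0.85, less than these medians. UTP9 rose by 1.51 ± 0.06, PWP2 by 1.77 ± 0.06, MPP10 by 1.36 ± 0.04, RRP9 by 1.64 ± 0.07 and ECM16 by 1.44 ± 0.05. In the dilution comparison all 5 helicases and both BMS1 and RCL1 were lower, UTP-A had 5 of 7 lower and UTP-B 4 of 6. The U3 proteins RRP9 and SOF1 were both higher, by 0.23 ± 0.07 and 0.25 ± 0.06, as were UTP15 by 0.15 ± 0.06 and UTP25 by 0.35 ± 0.08 (limma adjusted p = 0.0067, 0.0016, 0.038 and 0.00047). All genes had a median of 0.27 there, and with libraries centred none of the 41 was called higher and RRP9, SOF1 and UTP15 changed by -0.02, -0.003 and -0.10. UTP5 fell by 0.87 ± 0.05, UTP23 by 0.82 ± 0.06, NAN1 by 0.72 ± 0.06 and BMS1 by 0.70 ± 0.05. MPP10, ECM16 and PWP2 fell by 0.38 ± 0.04, 0.37 ± 0.05 and 0.25 ± 0.06, while UTP9, UTP22 and ENP1 were not called.

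Each euploid population was also set against WT cells in exponential growth. These comparisons use the same euploid libraries as those above. All 41 genes were lower in the Tsai euploid population than in WT, against 40.6% of all genes called lower and 84.5% called in either direction, with a relative median of -1.96. DHR2 fell by 3.29 ± 0.11, UTP18 by 3.05 ± 0.07, DBP8, a helicase, by 2.77 ± 0.07 and BFR2 by 2.71 ± 0.07 (limma adjusted p from 5.4e-17 to 6.0e-15). RRP9 fell by 2.60 ± 0.07, ENP1 by 2.59 ± 0.07, PWP2 by 2.27 ± 0.06, UTP9 by 2.13 ± 0.06 and BMS1 by 1.72 ± 0.05, and MPP10, UTP22 and ECM16 by 1.57 ± 0.04, 1.56 ± 0.07 and 1.42 ± 0.05. The dilution euploid population had 34 genes lower and 2 higher than WT, against 42.3% and 29% of all genes, 71.3% called in either direction, and a relative median of -0.42. RRP9, BFR2 and RCL1 fell by 1.5 ± 0.07, 1.23 ± 0.07 and 1.14 ± 0.08 there, while MPP10 rose by 0.20 ± 0.04 and KRR1 by 0.13 ± 0.05 (limma adjusted p = 0.00067 and 0.034) and ECM16 was not called.

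As a share of the table's TPM, the 41 genes made up 0.303% ± 0.009 in the Tsai aneuploid and 0.109% ± 0.003 in the Tsai euploid population (SD, n = 3 each). The shares were 0.247% ± 0.010 in the dilution aneuploid and 0.303% ± 0.010 in the dilution euploid population, beside 0.414% ± 0.009 in WT. The Tsai euploid population is the lowest of the 5 groups and WT the highest, and the Tsai aneuploid and the dilution euploid populations do not differ beyond their spread. Other cell markers moved with these groups. Under the Tsai protocol 5 of 5 genes of alpha cells and 6 of 6 haploid-specific genes were lower in the aneuploid population. Their medians were -0.97 and -0.88, where 75.7% of all genes were called in either direction. Under the dilution protocol again all 5 and all 6 were lower, with medians of -0.96 and -0.63, against 15.1% of all genes called lower. Counts for genes of a cells are not given here. Of 10 stress-induced genes, 7 were lower and 2 higher under the Tsai protocol, and 0 lower and 9 higher under the dilution protocol. Their part in the processome result was not tested.

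Genes outside the list that work beside the processome were counted in the same comparisons. Of 18 further factors of the early particle, 17 were higher under the Tsai protocol, among them KRE33, the acetyltransferase of the small subunit RNA, by 1.78 and RRP5 by 1.65, while ESF1 changed by -0.09. Under the dilution protocol 14 were lower and 2 higher. All 33 assembly factors of the large subunit were higher under the Tsai protocol, and 30 lower and 1 higher under the dilution protocol. Of 138 ribosomal protein genes, 134 were higher and 3 lower under the Tsai protocol with a median change of 0.55, less than the 1.55 of the processome genes. The regulators did not move as one. TOD6 rose by 2.07 and DOT6 fell by 0.11 under the Tsai protocol, STB3 fell by 0.45 and SFP1, an activator of the regulon, rose by 0.22 (limma adjusted p = 9.4e-15, 0.022, 4.4e-06 and 0.016). Against WT, the Tsai euploid population had DOT6 higher by 1.36, STB3 higher by 0.74 and TOD6 lower by 2.95.

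In the time course the 41 genes changed together. Over the 14 time means, after centring each library on its median, a gene's Pearson correlation with the mean of the other 40 ran from 0.889 for MPP10 to 0.996, with a median of 0.981, and 39 of 41 were above 0.9, against 15.8% of 5403 other genes with the mean of the 41. These are descriptions over 14 times of 1 culture series. The 10 other genes most like the mean were YVH1, RPA34, GCD11, MAK16, SPB1, NOP13, NOG2, RLP24, TMA46 and SSF1. All 41 genes were highest at 0, 2 or 4 h, and 31 were lowest at 16 h.

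**Figure D5:**
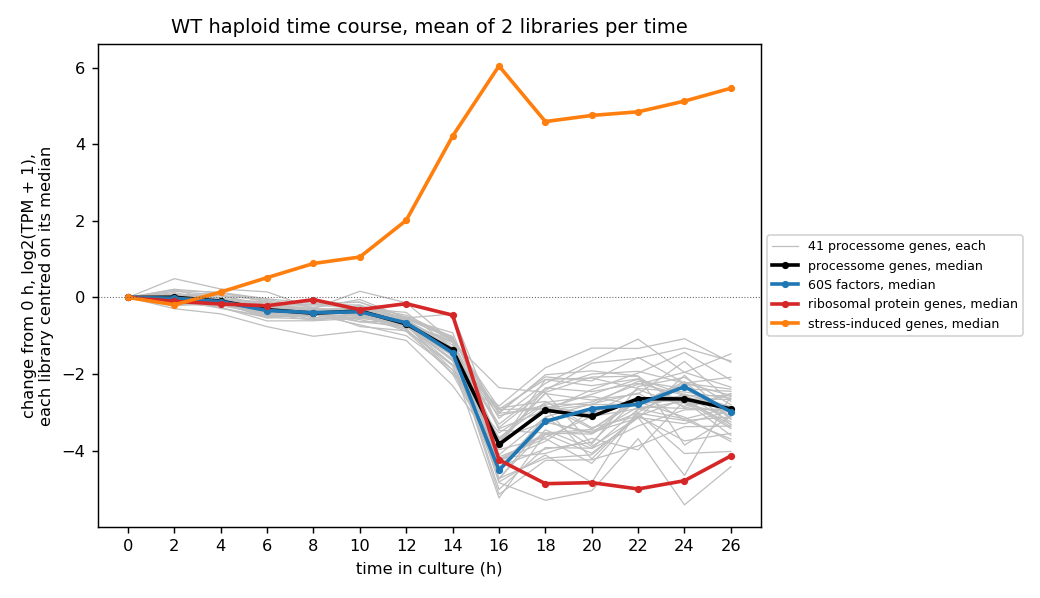
Change from 0 h of each of the 41 processome genes (grey) and the medians of the 41, of 33 assembly factors of the large subunit, of 138 ribosomal protein genes and of 10 stress-induced genes over 0 to 26 h, in log2(TPM + 1) with each library centred on its median. The processome median is -1.38 at 14 h, when that of ribosomal protein genes is -0.46, and -3.84 at 16 h, when that of ribosomal protein genes is -4.24.

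Centred on the library median, the median of the 41 was -0.69 at 12 h relative to 0 h, -1.38 at 14 h and -3.84 at 16 h. PWP2 had 5.58 and 5.54 at 0 h, 4.56 and 4.55 at 12 h, 3.84 and 3.54 at 14 h, 1.36 and 1.58 at 16 h and 1.68 and 1.66 at 18 h, and it stayed at or below 2.82 afterwards. Its libraries of one time lay close together until 22 h. KRR1 had 7.63 and 7.37 at 0 h, 6.34 and 5.92 at 14 h and 2.98 and 2.08 at 16 h. BUD21, the highest of the 41 at 0 h with 7.72 and 7.66, still had 5.27 and 4.40 at 16 h.

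Between 0, 2 and 4 h and 8, 10 and 12 h, 0 of 41 genes were called (limma), where 1.16% of all genes were. At an unadjusted p under 0.05, 9 were lower, and the share of all genes at this level was not computed. The relative median of the later times was -0.44. With each library centred on its median 12 of 41 were called lower (4.96% of all genes called lower, 15.1% in either direction), and after rescaling TPM to the full total 5 were (4.08% lower). Between 10 and 12 h and 14 h, again 0 were called (limma), against 1.01% of all genes, with a relative median of -0.93. Here 22 were lower at an unadjusted p under 0.05, again with no share of all genes computed. In that step 25 were lower in centred libraries (6.89% of all genes called lower, 18.6% in either direction) and 21 with rescaled TPM (5.54% lower). Ribosomal protein genes had a relative median of -0.25 in that step and assembly factors of the large subunit of -0.94. PWP2 changed by -1.05 ± 0.44 at 14 h relative to 10 and 12 h, MPP10 by -1.16 ± 0.47 and UTP22 by -0.16 ± 0.42, and TOD6 fell by 2.5 ± 0.47 (limma adjusted p = 0.00074).

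From 14 to 16 h, 36 of 41 genes were lower, against 13.6% of 5444 genes called lower and 27.4% called in either direction. The median of the 41 changed by -2.2 and that of all genes by 0.23, a relative median of -2.44. UTP4 had 0.68 and 0.95 at 16 h, against 4.63 and 4.26 at 14 h, and fell by 3.63 ± 0.50 (SE, limma adjusted p = 5.9e-08). NOP14, a scaffold protein, had 1.48 and 0.23 at 16 h, against 4.70 and 3.95 at 14 h, and fell by 3.47 ± 0.57. KRR1 fell by 3.60 ± 0.58 and EMG1 by 3.49 ± 0.58, and in these 4 genes every 16 h library lay far below every 14 h library. The 4 were picked as the largest called falls, and the share of all genes without overlap was not computed. UTP22 fell by 2.87 ± 0.49, PWP2 by 2.21 ± 0.51, ECM16 by 2.2 ± 0.52, BMS1 by 1.91 ± 0.52, RRP9 by 1.77 ± 0.53, UTP9 by 1.62 ± 0.50 and ENP1 by 1.35 ± 0.53 (limma adjusted p from 4.9e-06 to 0.048). HCA4, UTP7, UTP30, MPP10 and LCP5 were not called, MPP10 with 3.99 and 2.96 at 16 h, against 4.15 and 4.62 at 14 h. Of 138 ribosomal protein genes 136 were lower, with a median change of -3.56, and 28 of 33 assembly factors of the large subunit. All 10 stress-induced genes were higher.

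From 18 to 26 h the centred median of the 41 stayed between -2.65 and -3.11 relative to 0 h, above its value at 16 h, while ribosomal protein genes stayed between -4.14 and -5.00. The test of 22, 24 and 26 h against 18 and 20 h called 12 of 41 genes lower, against 63.6% of all genes called lower and 64.5% in either direction. All genes had a median of -0.93 there, in libraries whose summed TPM fell to as low as 15.4% of the full total, and the relative median of the 41 was 0.48. In centred libraries 18 were higher and 1 lower (36% of all genes called, 16.1% lower), and with rescaled TPM 8 higher and 3 lower (32.8% called, 19.7% lower). The largest called falls as deposited were those of UTP30 by 1.61 ± 0.37, BUD21 by 1.55 ± 0.34, UTP5 by 1.29 ± 0.36 and UTP9 by 1.29 ± 0.33 (limma adjusted p = 0.00076, 0.00057, 0.0032 and 0.0017). RRP9 and ENP1 fell by 0.83 ± 0.34 and 0.82 ± 0.34, but changed by 0.12 and 0.12 in centred libraries, and PWP2, UTP22, MPP10, ECM16 and BMS1 were not called. Without 20 h replicate 2 the count lower was 5, without 18 h replicate 2 it was 7 and without 24 h replicate 2 it was 21.

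W303 cells after NaCl had lower processome values than 2N of exp3. Of 34 genes that passed the filter on low values, a mean of at least 2, 25 were lower and 0 higher, against 32.7% of 2532 genes called lower and 41.7% called in either direction. UTP6, ROK1, DBP8, DHR2, UTP11, UTP30 and BFR2 did not pass the filter, and with TPM rescaled over the table, where all 41 were tested, 38 were lower, against 36.7% of 5513 genes, whose median change was -1.32. The relative median was -0.86, with all genes at -0.50. KRR1 had 1.81, 1.59 and 1.81 in NaCl-treated W303 cells, against 3.78 and 3.70 in 2N, and fell by 2.01 ± 0.22 (SE, limma adjusted p = 0.0012). ECM16 had 1.36, 1.67 and 1.14 in treated W303 cells, against 3.29 and 3.38 in 2N, and fell by 1.94 ± 0.27 (limma adjusted p = 0.0025). In 33 of the 34 genes at the filter every treated library lay below both 2N libraries, IMP4 being the exception, against 52.0% of all genes at the filter. The same held for the other 7 genes, but no share of all genes below the filter was computed. UTP23 fell by 2.17 ± 0.35, UTP21 by 1.74 ± 0.27, MPP10 by 1.60 ± 0.25, PWP2 by 1.55 ± 0.22, ENP1 by 1.34 ± 0.23, UTP9 by 1.2 ± 0.33 and BMS1 by 1.05 ± 0.22, and UTP22 and RRP9 were not called. The labels give polyA RNA for the NaCl libraries and total RNA for exp3. No untreated W303 library was compared, so that salt, strain background, ploidy, temperature, type of RNA and run cannot be told apart.

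The changes were also set beside the promoter motifs, as a description. From 14 to 16 h the median change was -2.09 for the 28 with both and -2.46 for the 13 without both. Under the Tsai protocol the medians were 1.5 and 1.58, and after NaCl -1.41 over 24 and -1.25 over 10 genes tested. UTP22, UTP30 and EMG1, the genes with neither motif, rose under the Tsai protocol by 0.98, 1.07 and 1.53.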

How the data were processed

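RNA sequencing was done on 176 libraries in 81 groups. The authors deposited 1 table of log2(TPM + 1) values for 6692 genes, so the log2 scale and the pseudocount of 1 are theirs. STAR 2.5.3a, RSEM 1.3.0 and the sacCer3 build are named in the submitters' processing notes. Libraries of exp1 to exp4 and NaCl were made with a TruSeq kit and the others with a KAPA kit, per the labels, which give total RNA for exp1 to exp4 and polyA RNA for all others. No counts were analysed here, so depth and counting error are unknown.

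Samples were grouped by title. Genes with a mean of at least 2 over the libraries compared entered a linear model with trended variance (limma 3.58.1, R 4.3.3), with p-values adjusted over all genes tested by the Benjamini-Hochberg method at 0.05. Batch fits had experiment as a term. Descriptions used Python 3.11.15, numpy 2.4.6, pandas 2.3.3 and matplotlib 3.10.9. The scripts were tested on simulated data. The 41 genes and the other lists were chosen with earlier results of these data known. UTP9, PWP2, UTP22, MPP10, RRP9, ECM16, BMS1 and ENP1 were described in every comparison, with up to 4 largest called increases and decreases, the 4 smallest adjusted p-values in F tests, and the 10 other genes most like the mean over 14 times.

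Alternatives were a pseudocount of 0.1, a filter at 4 or none, centring on the library median, TPM rescaled to the full total, a constant variance prior, a replicate block, single experiments, and leaving out each library. Rescaling with centring, leaving out time course libraries of low TPM sum and leaving out both chemostat A18 libraries were added after seeing the data.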

Additional observations from a re-analysis of the deposited data

Results flagged for a closer look

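In the 4 libraries of 2N in exp1, 1 library lay far from the other 3 for 6 genes. Replicate 3 was the high one for 5 of them, with log2(TPM + 1) of 3.55 for UTP8, 3.998 for UTP15, 3.94 for RRP9, 3.51 for HCA4 and 3.64 for UTP7. For BUD21 the low one was replicate 2, at 1.92. Replicate 3 was high as a whole library. Its median over all genes was 2.60, against 1.86, 1.81 and 2.025 in replicates 1, 2 and 4. Relative to the library median, the mean of the processome genes was lowest in replicate 3, at 0.88, against 1.01, 1.00 and 1.04. Whether these 5 genes stood out beyond the shift of the library was not tested. The 6 flags come from 42 tests of the gap of an extreme library, of which chance gives about 1 in 20. Tests that share a shifted library are not independent.

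The effect of aneuploidy in the populations differed between the Tsai and the dilution protocol for all 41 genes, each by limma's test of the difference itself. The labels describe the growth of both protocols together, and what separates them was not tested.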

How the results depend on the processing

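The batch count of 4 lower genes was 0 with a filter at 4 (no gene of the 41 passed it), 2 without a filter, 8 in centred libraries, 0 with the replicate block, 0 with the strain as a random block, and 0 within exp2 or exp3 alone. It was 1 to 5 when single libraries were left out. LCP5 in A23 was 0.003 in exp3 alone. The A35 median was -0.12 to 0.049 and the chemostat A18 median -1.49 to 0.48 on leaving out single libraries. The chemostat mean had 0 to 2 genes lower, and 1 without both A18 libraries.

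With a pseudocount of 0.1, the relative median was 1.54 for the Tsai effect, 2.13 for the difference between protocols, -2.02 for Tsai euploid against WT, -2.86 for 16 h against 14 h and -0.996 for NaCl, and 1 gene was higher late in the time course. The difference between protocols had a median of 2.06 with a filter at 4, 2.07 with none and 2.06 to 2.11 without single libraries. Tsai euploid against WT gave -2.001 to -1.916 without single libraries. The dilution effect had 0 genes higher in centred libraries, where RRP9 was at -0.019, SOF1 at -0.003 and UTP15 at -0.10, and 2 to 5 higher without single libraries, with medians of -0.56 to -0.50. Dilution euploid against WT had 1 gene higher with a constant variance prior and 1 to 2 without single libraries.

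For 16 h against 14 h, a filter at 4 gave 14 of 19 genes lower and a median of -2.21, and single libraries -2.65 to -2.24. Genes lower at 8 to 12 h numbered 12 in centred libraries, 5 with rescaled TPM, 5 rescaled and centred and 12 without libraries of low TPM sum. At 14 h these counts were 25, 21, 23 and 20, and 0 to 3 without single libraries. At 22 to 26 h the centred data had 18 higher and 1 lower, with RRP9 at 0.12 and ENP1 at 0.12. Rescaled data had 8 higher, 3 lower and a median of 0.29, rescaled and centred data 9, 3 and 0.29 with ENP1 at 0.055, and data without low sums 4, 4 and 0.20. A filter at 4 gave a median of 0.25. Single libraries gave 5 to 21 lower, 0 to 1 higher and medians of 0.31 to 0.59. NaCl had 0 lower with a filter at 4 (no gene passed), 38 with rescaled TPM, and medians of -0.92 unfiltered, -1.02 rescaled, -0.70 against all 8 libraries of 2N and -0.88 to -0.72 without single libraries. In exp4, 3 genes differed with a filter at 4 (3 tested). Where no construction above shows it, the cause was not tested.

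Replicate numbers do not pair the samples: deviations of same-numbered libraries correlated at -0.2 to 0.12 in batch culture and -0.58 to 0.48 in the chemostat. The replicate block gave 41 higher for the Tsai effect, 28 lower and 5 higher for the dilution effect, 35 lower at 16 h and 21 lower after NaCl. Over 46 counts and medians, 1433 of 1508 alternative values kept their direction and side of the threshold or size.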
